A study of Chlorocebus aethiops with 24 samples.

Results

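The genes described here encode the extracellular matrix and the proteases and inhibitors that remodel it. They were taken as every row of the array table whose annotation gives a single symbol of one of these families: collagens (COL), laminins (LAMA, LAMB, LAMC), nidogens (NID), fibrillins (FBN), fibulins (FBLN), thrombospondins (THBS), tenascins (TNC, TNR), the brain proteoglycans NCAN and BCAN, SPARC and SPOCK proteins, matrix metalloproteases (MMP), their tissue inhibitors (TIMP), and ADAM and ADAMTS proteins. This gave 64 rows for 60 genes, of 11512 rows in all, where a row is the summarized signal of 1 probe set, the group of short probes that reads one transcript. TIMP1 had 3 rows, and FBN1 and COL5A2 had more than 1 row each. The methods kept a single probe set per gene, so rows that share a symbol here share it in the platform annotation, and whether they read the same gene was not tested.

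Messenger RNA of the left hippocampus was measured in male vervets, used as a primate model of fetal alcohol spectrum disorder (FASD), on Affymetrix rhesus macaque expression arrays with 1 array per animal. FASD animals were born to dams that drank ethanol by choice late in gestation, and control animals to dams given a sucrose solution of equal calories. There were 5 FASD and 6 control animals at 2 years, and 5 FASD and 6 control animals at 5 months. All dams, those of the controls included, had been selected for preferring alcohol, and a dam could have been given ethanol in one breeding cycle and sucrose in another, so animals of different groups may have shared a mother. The labels name the species Chlorocebus aethiops, and the probes were designed on macaque sequence, so every value comes from hybridization across species. Control animal 6 at 5 months carries 1 label that says 2 years; it was kept at 5 months, which its title, description and age give. A discarded FASD array of 5 months bears the same replicate number in its title as the kept FASD animal 2 and another number in its source name, so which animal was discarded is not settled by the labels. The paper's supplement gives the excluded array of that age a number that no kept FASD array of 5 months bears.

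The brain matrix differs from that of most tissues. Fibrillar collagen is sparse in the parenchyma and lies mainly in the meninges and around vessels, laminins, nidogens and type IV collagens form the basement membranes of vessels and the pial surface, and hyaluronan, proteoglycans and tenascins fill the space between cells and build the perineuronal nets that form around some neurons as plasticity declines after birth. Metalloproteases of the MMP, ADAM and ADAMTS families cut these proteins and also release growth factors and receptor domains from the cell surface, and TIMP proteins inhibit them.

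Signals are given as log2 expression intensities, so a difference of 1 is a doubling. Levels of different probe sets cannot be set against each other, but the place of a row among all rows shows how dim it is. The 64 rows had mean signals between 4.07 for ADAMTS6, a secreted protease, and 11.6 for SPOCK1, a brain proteoglycan also called testican-1. Their median was 6.89, against 8.01 over all rows. Only 14 of the 64 rows lay above the median signal of all rows, 50 lay below it and 10 lay among the dimmest 10% of rows. The spread between animals within a group had a median SD of 0.177 in these rows and 0.158 in all rows.

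Neuron markers were read beside the tissue label, and of 8 pyramidal neuron markers listed 4 were measured. No other brain region was measured for comparison, so their signals cannot single out the hippocampus. NEUROD6, TBR1 and NRGN, which mark excitatory neurons, had mean signals of 10.02, 10.49 and 10.76, and PROX1, which marks dentate granule cells, had 7.93; another TBR1 row had 5.87. Each array had a mean correlation over all rows of 0.979 to 0.991 with the others, across genes, which are not independent replicates. The lowest was that of FASD animal 2 at 5 months. Because whole tissue was used, fewer cells of a type and less RNA per cell cannot be told apart in any difference below.

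The first question was whether prenatal ethanol went with a different level of these genes. The alcohol difference was computed as the mean over the ages of FASD minus control in a limma model with 1 mean per group, and p values were adjusted over all 11512 rows by the Benjamini-Hochberg method. No matrix or protease row passed an adjusted p under 0.05, and none of all rows did (0%); the lowest adjusted p among the 64 rows was 0.579 in limma. At an unadjusted p under 0.05, limma counted 6 of the 64 rows (9.38%), against 8.44% of all rows. COL11A2 was higher in FASD, where 2.43% of all rows were, and LAMA1, row 1 of FBN1, row 1 of TIMP1, TNC and SPOCK3 were lower, where 6.01% of all rows were. With each array centred on its own median, limma counted 5 rows (7.81%, against 8.18% of all rows), 2 higher and 3 lower in FASD. The share of alcohol calls over all rows that were lower in FASD was then 48.5%, against 71.2% without centring. A two-way analysis of variance, the test named in the methods, also counted 6 rows unadjusted (9.38%, against 8.15% of all rows) and 0 adjusted. With array weights 13 of the 64 rows were called (20.3%), against 14.5% of all rows. Without control animal 2 at 2 years 11 were (17.2%, against 14.6% of all rows), and without control animal 1 at 5 months 3 were (4.69%, against 6% of all rows). Over the 22 fits that each left out 1 animal, the share was above that of all rows in 14. The median alcohol difference was 0.0312 in the 64 rows, against -0.00693 over all rows, with 40 rows higher (62.5%) and 24 lower (37.5%) in FASD. Of all rows, 46.8% were higher and 53.2% lower.

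**Figure D1:**
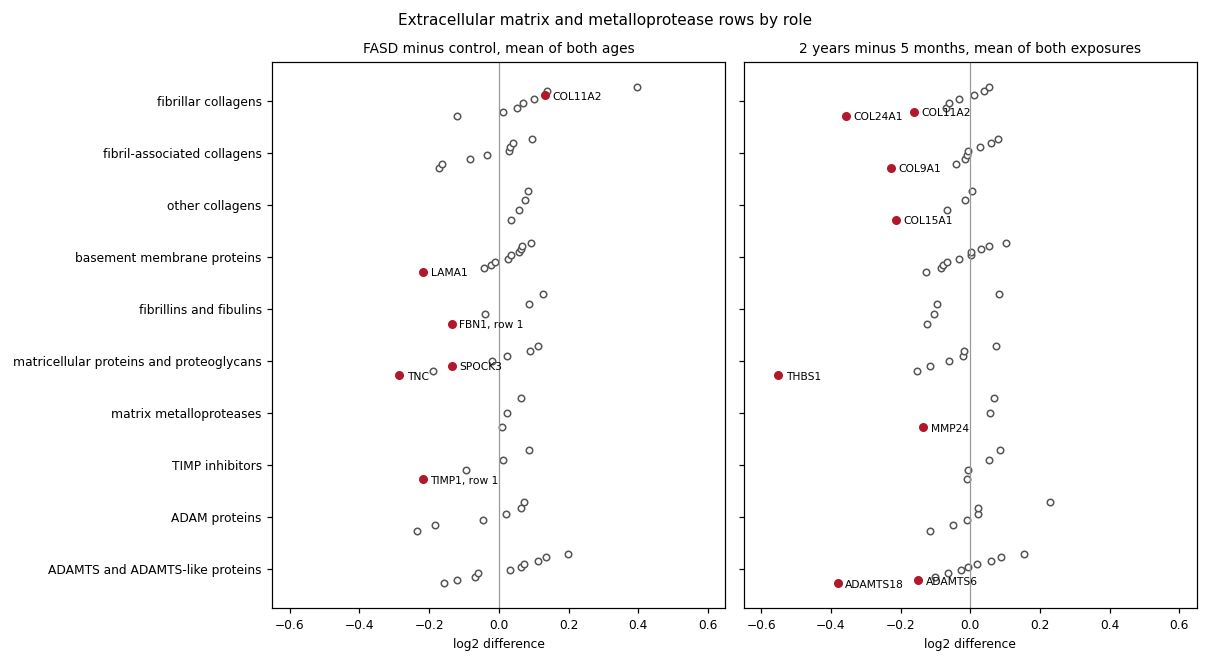
Log2 difference of every matrix and protease row, grouped by role down the page, for FASD minus control averaged over the ages (left) and 2 years minus 5 months averaged over the exposures (right). Each point is 1 row, and filled points with names had an unadjusted p under 0.05 in limma; 6 rows are filled on the left, 5 of them below 0, and 8 on the right, all below 0.

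Fibrillar collagens make up the rope-like fibres of connective tissue. Their 8 rows, for 7 genes, included 7 with a positive and 1 with a negative alcohol difference, and the median was 0.08. COL11A2, a chain of the minor type XI collagen that sets fibril width, was the row called at an unadjusted p under 0.05. At 2 years its signal was 7.63, 7.93, 7.89, 7.80 and 7.85 in FASD animals, against a lowest, median and highest of 7.74, 7.81 and 7.97 in controls. At 5 months it was 8.20, 8.24, 8.03, 8.14 and 8.03 in FASD animals, against a lowest, median and highest of 7.74, 7.81 and 8.05 in controls. The groups overlapped at 2 years, while at 5 months 3 of the 5 FASD animals lay above every control and the other 2 lay just under the highest one. The alcohol difference was 0.13 (standard error 0.05, unadjusted p = 0.0136, adjusted p = 0.579, limma). At 5 months alone it was 0.28 (standard error 0.07, unadjusted p = 0.000562, adjusted p = 0.724, limma), which ranked it 7 among the 11512 rows, and at 2 years it was -0.02 (standard error 0.07, unadjusted p = 0.82, limma). Its difference at 5 months was between 0.25 and 0.32 when each animal was left out in turn.

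COL5A3, a chain of type V collagen, was the other fibrillar collagen called at 5 months. Its signal was 7.65, 7.36, 7.50, 7.60 and 7.65 in FASD animals, against a lowest, median and highest of 7.34, 7.37 and 7.43 in controls. Of the FASD animals, 4 lay above every control and 1 within their range. The difference at 5 months was 0.18 (standard error 0.08, unadjusted p = 0.0412, adjusted p = 0.932, limma). This call was lost in 8 of the 22 fits that each left out 1 animal, and each of the 8 left out an animal of 5 months. Leaving out an animal of 2 years kept the difference and changed only the variance estimate. At this age 3 of the 64 rows were called (4.83% of all rows): COL11A2 and COL5A3 higher in FASD (1.47% of all rows) and TNC lower (3.36% of all rows). The TNC call at this age was lost in 9 of the 22 fits that left out 1 animal and in the analysis of variance, after centring and after quantile normalization. FASD and control animals overlapped in each of the 64 rows at both ages, while 0.313% of all rows did not overlap at 2 years and 0.443% did not at 5 months.

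COL1A2, a chain of type I collagen, had the largest alcohol difference of the 64 rows, at 0.40 (standard error 0.25, unadjusted p = 0.121, adjusted p = 0.662, limma). Its signal at 2 years was 6.83, 6.81, 6.38, 6.82 and 8.10 in FASD animals, against a lowest, median and highest of 5.72, 6.89 and 7.22 in controls. At 5 months it was 8.45, 7.03, 6.73, 6.69 and 6.58 in FASD animals, against a lowest, median and highest of 5.85, 6.80 and 7.12 in controls. In each FASD group 1 animal stood far above the rest and the others lay inside the control range. Without FASD animal 6 at 2 years the difference at that age was 0.07, compared with 0.35 with it. Without FASD animal 2 at 5 months the difference at that age was 0.11, compared with 0.44 with it.

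The same animals were high for decorin (DCN), a small proteoglycan made by fibroblasts. DCN was 9.24 in FASD animal 6 at 2 years, against 7.68 to 8.56 in the other FASD animals of that age, and 9.64 in FASD animal 2 at 5 months, against 7.87 to 8.33. Some controls were also high for DCN but did not stand apart in COL1A2. Control animal 4 at 2 years had a DCN signal of 9.46, against 8.02 to 8.40 in the others. Control animal 1 at 5 months had 8.96, against 7.88 to 8.37. Their COL1A2 signals were 7.08 and 7.11, where the highest of their groups were 7.22 and 7.12. Fibroblast and mural markers were followed as a list, of which 4 of 12 were measured (DCN, FOXC1, LUM and MYL9). Their mean signal per animal, each row centred on its own mean, ranged from -0.37 to 0.56 in FASD and -0.33 to 0.46 in controls at 2 years, and from -0.28 to 0.79 in FASD and -0.39 to 0.47 in controls at 5 months. The highest values of the FASD groups, 0.56 and 0.79, were those of the same animals. COL3A1, a chain of type III collagen, stayed within 7.64 to 7.79 in FASD animals at 2 years and 7.65 to 7.76 at 5 months, and neither of these animals was the highest of its group in that row. The COL3A1 row hardly varied, with group SDs of 0.04 to 0.08, against 0.51 to 0.77 for COL1A2. Whether its probe set reads the vervet transcript was not tested. Both of these FASD animals were the highest of their groups in 6 of the 64 rows (COL1A2, COL6A1, COL6A3, LAMA4, ADAMTS8 and row 3 of TIMP1), with COL6A3 at 6.43 and 6.14. They were also the highest in 3 of the 42 marker rows, the fibroblast markers DCN, LUM (6.20 and 7.13) and FOXC1 (7.98 and 7.60). In MYL9, the other measured marker of that list, FASD animal 6 at 2 years had 7.15, against 7.24 in FASD animal 2 of that age. The share over all rows was not computed, and these animals were picked for their COL1A2 values. The part of fibroblast RNA in the COL1A2 values was not tested.

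**Figure D2:**
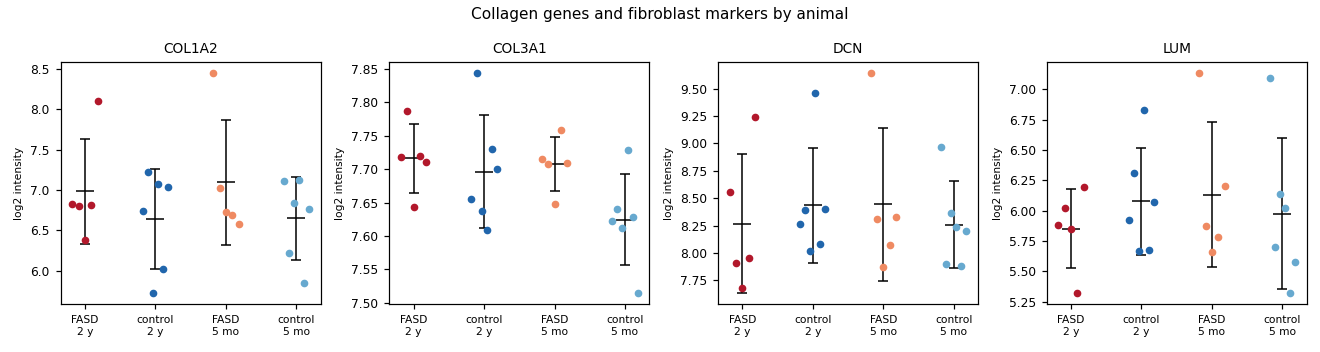
Log2 intensity of COL1A2, COL3A1, DCN and LUM in each animal of the 4 groups, with group mean and SD. FASD animal 6 at 2 years (8.10) and FASD animal 2 at 5 months (8.45) stand above the other animals in COL1A2 and are also the highest of their groups in DCN (9.24 and 9.64), and neither is the highest in COL3A1.

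Fibril-associated collagens sit on the surface of fibres or link them to other matrix, and their 8 rows had 4 positive and 4 negative alcohol differences, from -0.17 for COL14A1 to 0.10 for COL12A1. None of them was called for alcohol. The 4 rows of other collagens (COL6A1, COL6A3, COL15A1 and COL28A1) had alcohol differences of 0.04 to 0.08, none of them called.

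Among the 10 basement membrane rows, 6 had a positive and 4 a negative alcohol difference, and 1 was called. LAMA1, the laminin chain of early basement membranes, had signals of 5.81, 6.44, 6.17, 6.10 and 5.94 in FASD animals at 2 years, against a lowest, median and highest of 6.10, 6.38 and 6.45 in controls. At 5 months it had 6.06, 6.05, 6.28, 6.12 and 6.07 in FASD animals, against 5.97, 6.35 and 6.61 in controls. At 5 months the FASD animals, at 6.05 to 6.28, lay inside the wider control range. The alcohol difference was -0.22 (standard error 0.08, unadjusted p = 0.0151, adjusted p = 0.579, limma) and lay between -0.26 and -0.18 over the fits that each left out 1 animal. The other laminins measured, LAMA2, LAMA3, LAMA4, LAMB1 and LAMB2, had differences of -0.02 to 0.09, none of them called.

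Fibrillins form the microfibrils that carry elastin, and fibulins bind to them. Row 1 of FBN1 had signals of 9.50, 9.60, 9.82, 9.70 and 9.84 in FASD animals at 2 years, against a lowest, median and highest of 9.76, 9.92 and 10.12 in controls. All 5 FASD animals lay below the control mean of 9.92 and 3 lay below every control. At 5 months FASD animals had 9.97, 9.73, 10.03, 9.85 and 9.81, against 9.74, 9.94 and 10.07 in controls, and the groups overlapped. The difference was -0.22 at 2 years (standard error 0.08, unadjusted p = 0.0109, adjusted p = 0.793, limma) and -0.05 at 5 months (standard error 0.08, unadjusted p = 0.57, limma), and -0.14 over both ages (standard error 0.06, unadjusted p = 0.0268, adjusted p = 0.58, limma). The call over both ages was lost in 3 of the 22 fits that left out 1 animal, after centring and after quantile normalization. The call at 2 years held in all 22, though those without an animal of 5 months changed only its variance estimate. That call was lost with the mean of the gene's rows. Row 2 of the same gene had 0.06 at 2 years and -0.14 at 5 months, neither of them called. FBLN1 and FBLN5 had alcohol differences of 0.13 and 0.09, not called.

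Matricellular proteins and brain proteoglycans act on cells rather than bear load, and 2 of their 7 rows were called for alcohol. TNC encodes tenascin-C, which is plentiful in the developing brain and is made again by reactive astrocytes. At 2 years it had signals of 7.42, 8.15, 8.37, 7.58 and 7.37 in FASD animals, against a lowest, median and highest of 7.68, 7.96 and 8.26 in controls. At 5 months it had 7.75, 7.86, 7.93, 7.68 and 7.82 in FASD animals, against 7.76, 8.11 and 8.72 in controls. All 5 FASD animals at 5 months lay below the control mean of 8.18, while at 2 years 1 FASD animal lay above every control and 3 lay below every control. The alcohol difference was -0.29 (standard error 0.13, unadjusted p = 0.0317, adjusted p = 0.58, limma). It stayed under an unadjusted p of 0.05 in 14 of the 22 fits that each left out 1 animal, with values of -0.36 to -0.23.

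SPOCK3, or testican-3, is a brain proteoglycan that inhibits membrane-type metalloproteases. At 2 years it had signals of 5.69, 5.69, 5.64, 5.63 and 5.82 in FASD animals, against a lowest, median and highest of 5.68, 5.94 and 6.01 in controls. At 5 months it had 5.50, 5.61, 5.61, 5.78 and 5.86 in FASD animals, against 5.45, 5.75 and 6.00 in controls. All 5 FASD animals at 2 years lay below the control mean of 5.88, and the groups overlapped at both ages. The alcohol difference was -0.14 (standard error 0.06, unadjusted p = 0.0409, adjusted p = 0.59, limma), and it stayed under an unadjusted p of 0.05 in only 8 of the 22 fits that each left out 1 animal. BCAN, THBS1, THBS2, THBS3 and SPOCK1 were not called, with differences of -0.19 for SPOCK1 to 0.11 for THBS2.

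TIMP proteins block metalloproteases, and 4 rows covered TIMP1 and TIMP2. Row 1 of TIMP1 had signals of 8.52, 7.79, 8.29, 8.39 and 8.39 in FASD animals at 2 years, against a lowest, median and highest of 8.01, 8.55 and 8.74 in controls. At 5 months it had 7.97, 8.20, 8.09, 8.42 and 8.42 in FASD animals, against 8.11, 8.45 and 8.71 in controls. The groups overlapped at both ages, though all 5 FASD animals at 5 months lay below the control mean of 8.44. The alcohol difference was -0.22 (standard error 0.09, unadjusted p = 0.0297, adjusted p = 0.58, limma). That call was lost in 5 of the 22 fits that left out 1 animal and with the mean of the gene's rows. Row 2 of TIMP1 had -0.10 (standard error 0.06, unadjusted p = 0.129) and row 3 had 0.09 (standard error 0.09, unadjusted p = 0.321), so the rows differed in direction. TIMP2 had 0.01.

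**Figure D3:**
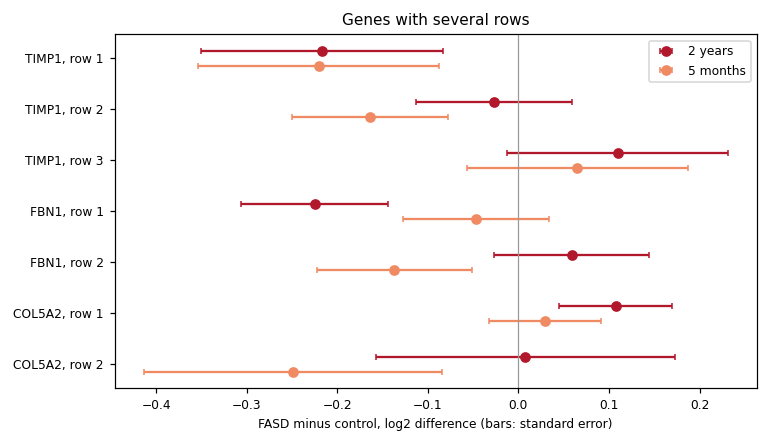
FASD minus control difference (log2, horizontal axis; bars are standard errors) at 2 years and at 5 months for each row of the genes with several rows. Rows 1 and 2 of TIMP1 lie below 0 and row 3 above it, row 1 of FBN1 is at -0.22 and row 2 at 0.06 at 2 years, and the COL5A2 rows part at 5 months (0.03 for row 1 and -0.25 for row 2).

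Of the proteases themselves, no row was called for alcohol over both ages. The 3 matrix metalloprotease rows (MMP24, MMP26 and MMP28) had differences of 0.01 to 0.06, the 6 ADAM rows of -0.24 to 0.07, and the 10 ADAMTS and ADAMTS-like rows of -0.16 to 0.20. At 2 years alone, 4 of the 64 rows were called (6.05% of all rows), with ADAMTS3 higher in FASD (2.69% of all rows) and ADAM10, row 1 of FBN1 and SPOCK3 lower (3.35% of all rows). ADAM10, the sheddase that cuts Notch and the amyloid precursor protein, had 6.50, 5.83, 6.24, 6.27 and 6.50 in FASD animals of 2 years, against a lowest, median and highest of 5.93, 6.81 and 7.15 in controls, a difference of -0.45 (standard error 0.20, unadjusted p = 0.0389, adjusted p = 0.793, limma). ADAMTS3, which trims procollagen and in mice cuts reelin, had 7.70, 7.99, 7.59, 8.32 and 8.09, against 7.37, 7.66 and 7.84, a difference of 0.33 (standard error 0.14, unadjusted p = 0.0249, adjusted p = 0.793, limma). All 5 FASD animals lay below the control mean in ADAM10 and 3 of 5 lay above every control in ADAMTS3. The ADAM10 call was lost in the analysis of variance and in 6 of the 22 fits that left out 1 animal, and the ADAMTS3 call in 4 of them. All of those fits left out an animal of 2 years. At 5 months these rows had -0.02 and 0.06. Whether the difference in either row varied with age was tested by the interaction, with an unadjusted p of 0.156 for ADAM10 and 0.183 for ADAMTS3 in limma.

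**Figure D4:**
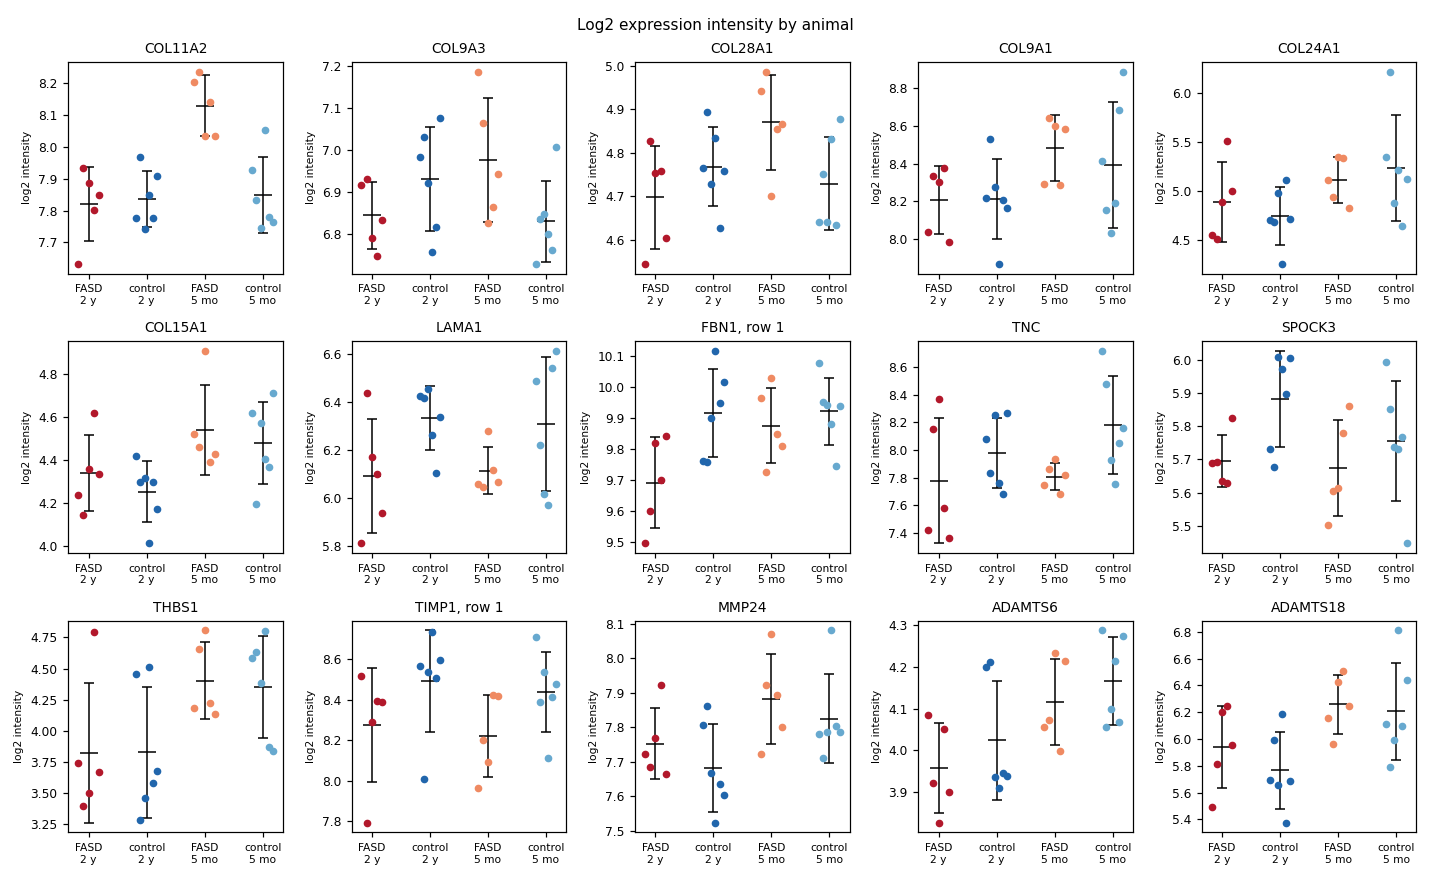
Log2 intensity in each animal for the 15 rows with an unadjusted p under 0.05 in the alcohol, age or interaction contrast, with mean and SD; FASD stands left of control and 2 years left of 5 months. COL11A2 is the row in which FASD animals of 2 years (7.63 to 7.93) and of 5 months (8.03 to 8.24) do not overlap.

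The second question was how the same genes differed with age. The age difference was taken as the mean over FASD and control of the value at 2 years minus that at 5 months. No matrix or protease row passed an adjusted p under 0.05 in limma, against 0.139% of all rows, and the lowest adjusted p among the 64 rows was 0.245. At an unadjusted p under 0.05, 8 of the 64 rows were called (12.5%), against 9.57% of all rows. All 8 were lower at 2 years, where 4.89% of all rows were, and none was higher, where 4.68% of all rows were. The analysis of variance counted 9 unadjusted (14.1%, against 9.36% of all rows) and 0 adjusted. The median age difference was -0.0161 in the 64 rows, against 0.00282 over all rows, with 25 rows higher (39.1%) and 39 lower (60.9%) at 2 years. Of all rows, 51.5% were higher and 48.5% lower.

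The 8 rows came from several roles. THBS1, thrombospondin-1, is a secreted protein that activates latent TGF-beta and that astrocytes of rodents release to promote synapses. In FASD animals it had signals of 3.74, 3.40, 3.50, 4.79 and 3.67 at 2 years and 4.19, 4.66, 4.81, 4.22 and 4.14 at 5 months. In controls the lowest, median and highest were 3.28, 3.63 and 4.51 at 2 years and 3.84, 4.49 and 4.80 at 5 months. In each exposure, 4 animals of 2 years lay below every animal of 5 months and the rest lay among them. Its age difference was -0.55 (standard error 0.18, unadjusted p = 0.00553, adjusted p = 0.263, limma), at -0.58 in FASD and -0.52 in controls.

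ADAMTS18, a secreted protease needed for eye and lung development in mice, had signals of 5.49, 5.81, 6.20, 6.25 and 5.95 in FASD animals at 2 years and 6.15, 5.96, 6.43, 6.51 and 6.25 at 5 months. In controls the lowest, median and highest were 5.37, 5.69 and 6.19 at 2 years and 5.79, 6.11 and 6.81 at 5 months. All 5 FASD animals and all 6 controls of 2 years lay below the mean of their 5-month group, though the ranges overlapped. The age difference was -0.38 (standard error 0.12, unadjusted p = 0.00415, adjusted p = 0.25, limma). ADAMTS6, whose family members act on fibrillin microfibrils, had -0.15 (standard error 0.05, unadjusted p = 0.00957, adjusted p = 0.318, limma).

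MMP24, a membrane-anchored metalloprotease found mainly in the nervous system, had signals of 7.72, 7.68, 7.77, 7.92 and 7.66 in FASD animals at 2 years and 7.72, 7.92, 8.07, 7.89 and 7.80 at 5 months. In controls the lowest, median and highest were 7.52, 7.65 and 7.86 at 2 years and 7.71, 7.79 and 8.08 at 5 months. The ranges overlapped in both exposures, and the age difference was -0.14 (standard error 0.06, unadjusted p = 0.0224, adjusted p = 0.409, limma). MMP26 and MMP28 had 0.07 and 0.06.

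The remaining rows called for age were collagens. COL15A1, found at basement membranes of vessels, had an age difference of -0.21 (standard error 0.07, unadjusted p = 0.00912), with a lowest, median and highest of 4.14, 4.33 and 4.62 at 2 years and 4.39, 4.46 and 4.91 at 5 months in FASD, and of 4.01, 4.30 and 4.42 at 2 years and 4.19, 4.49 and 4.71 at 5 months in controls. COL9A1, a chain of type IX collagen, had -0.23 (standard error 0.10, unadjusted p = 0.0268), and COL24A1, a minor fibrillar collagen, had -0.36 (standard error 0.15, unadjusted p = 0.0288). The COL9A1 call was lost in 6 of the 22 fits that left out 1 animal, with -0.18 without control animal 6 at 5 months, the animal with the conflicting label, and the COL24A1 call in 5. COL11A2 had the lowest p of the 64 rows for age, at -0.16 (standard error 0.05, unadjusted p = 0.00347, adjusted p = 0.245, limma). In controls the COL11A2 mean hardly differed with age, at 7.84 at 2 years and 7.85 at 5 months, while in FASD it was 7.82 and 8.13. The calls of this row for alcohol, age and the interaction draw on the same 5 FASD animals of 5 months and are not separate results. The adjusted p of these collagens lay between 0.245 and 0.443 in limma. THBS1, ADAMTS6, COL15A1 and COL24A1 were among the dimmest 10% of rows, and of the rows that dim 5.02% were called lower and 3.55% higher at 2 years.

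Within FASD animals 4 of the 64 rows were called for age (6.99% of all rows), all lower at 2 years (2.28% of all rows) and none higher (4.71% of all rows). They were COL11A2 at -0.31 (standard error 0.07, unadjusted p = 0.000321, adjusted p = 0.405, limma), THBS1, row 1 of FBN1 at -0.18 and COL28A1 at -0.17. The FBN1 and THBS1 calls were each lost in 6 of the 22 fits that left out 1 animal, and the COL28A1 call in 4. All these fits left out a FASD animal, while those without a control changed only the variance estimate. COL11A2 ranked 5 among the 11512 rows, and every FASD animal of 2 years lay below every FASD animal of 5 months. It was the only one of the 64 rows whose compared groups did not overlap. Over all rows, 1.31% did not overlap between the ages in FASD, 0.391% being lower at 2 years, and 0.434% did not in controls. Within controls 6 of the 64 rows were called (5.55% of all rows), 5 lower (ADAMTS18, ADAM15, COL24A1, COL15A1 and THBS1; 3.77% of all rows) and 1 higher at 2 years (1.78% of all rows). The higher one was ADAM18, known as a sperm surface protein, at 0.38 (standard error 0.16, unadjusted p = 0.0225, adjusted p = 0.752, limma), with a lowest, median and highest of 8.99, 9.58 and 9.97 at 2 years and 8.68, 9.05 and 9.43 at 5 months.

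The third question was whether the alcohol difference itself depended on age. This interaction was computed as the alcohol difference at 2 years less the one at 5 months. No row passed an adjusted p under 0.05 in limma or in the analysis of variance, and 3 of the 64 rows were called at an unadjusted p under 0.05 in each (3% of all rows in limma). All 3 were collagens with a negative interaction, a direction called in 0.886% of all rows, while a positive one was called in 2.11%. COL11A2 had -0.30 (standard error 0.10, unadjusted p = 0.00647, adjusted p = 1, limma) and ranked 23 among all rows, and its value lay between -0.34 and -0.25 with each animal left out in turn. Its alcohol difference was -0.02 at 2 years and 0.28 at 5 months.

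COL9A3, another chain of type IX collagen, had an interaction of -0.23 (standard error 0.10, unadjusted p = 0.0363, limma), with -0.09 at 2 years and 0.15 at 5 months. Its signal at 5 months was 7.19, 7.06, 6.83, 6.86 and 6.94 in FASD animals, against a lowest, median and highest of 6.73, 6.82 and 7.01 in controls, and 2 of the 5 FASD animals lay above every control. COL28A1, a collagen with von Willebrand factor A domains, had -0.21 (standard error 0.10, unadjusted p = 0.0438, limma), with -0.07 at 2 years and 0.14 at 5 months, and its mean signal of 4.76 lay among the dimmest 10% of rows. The interaction stayed under an unadjusted p of 0.05 in 13 of 22 fits with 1 animal left out for COL9A3 and in 8 of 22 for COL28A1.

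The type IX and type XI collagens were not alike in their age differences. At 5 months all of them had a higher mean in FASD than in controls. The means were 8.48 and 8.39 for COL9A1, 7.75 and 7.68 for COL9A2, and 6.98 and 6.83 for COL9A3. They were 8.58 and 8.43 for COL11A1, and 8.13 and 7.85 for COL11A2, the only one called at that age. At 2 years COL11A1 was higher in FASD (8.54 and 8.41), and the others were near the control mean or below it. COL9A1, COL9A2 and COL9A3 had age differences of -0.23, -0.01 and -0.02 and alcohol differences of 0.04, 0.03 and 0.03. COL11A1, the partner chain of COL11A2, had an alcohol difference of 0.14 (unadjusted p = 0.19) and an age difference of -0.03 (unadjusted p = 0.75).

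Other genes of the matrix outside these families were followed as a list of 107 genes, of which 57 were measured on 60 rows. At an unadjusted p under 0.05, 3 of these rows were higher and 3 lower for alcohol (10%, against 8.44% of all rows), 2 higher and 5 lower for age (11.7%, against 9.57%), and 0 higher and 1 lower for the interaction (1.67%, against 3% of all rows). None passed an adjusted p under 0.05 in limma. ACAN, or aggrecan, the chondroitin sulphate core of perineuronal nets, stood first. Its signal at 5 months was 8.96, 8.59, 8.29, 8.48 and 8.30 in FASD animals, against a lowest, median and highest of 7.58, 7.81 and 7.94 in controls, and every FASD animal lay above every control (0.122% of all rows). At 2 years it was 7.77, 8.16, 7.60, 8.32 and 7.34 in FASD animals and 7.14 to 8.16 in controls, which overlapped. The difference was 0.72 at 5 months (standard error 0.18, unadjusted p = 0.000445, adjusted p = 0.724, limma), 0.10 at 2 years and 0.41 over both ages (standard error 0.12, unadjusted p = 0.00313, adjusted p = 0.579, limma). The interaction was -0.62 (standard error 0.25, unadjusted p = 0.02, adjusted p = 1, limma), and without FASD animal 6 at 2 years its unadjusted p was 0.0574.

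HAPLN1, a link protein that ties aggrecan to hyaluronan, had the lowest p of this list for age, with a difference of -0.29 (standard error 0.07, unadjusted p = 0.000676, adjusted p = 0.129, limma). LTBP1, which anchors latent TGF-beta, had -0.22 (unadjusted p = 0.00789) and VCAN, or versican, a proteoglycan of the immature matrix, had -0.31 (unadjusted p = 0.0115). The rows called higher at 2 years were HAPLN4, another link protein, at 0.33 (unadjusted p = 0.0326), and ITGB3, an integrin subunit, at 0.11 (unadjusted p = 0.0147). For alcohol, SDC2, a cell surface heparan sulphate proteoglycan, had -0.25 (unadjusted p = 0.0103), while EGFLAM, or pikachurin, a synaptic matrix protein, and GPC2, a glypican, had 0.18 (unadjusted p = 0.0116) and 0.13 (unadjusted p = 0.0124).

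Marker lists of oligodendrocyte lineage cells had a higher mean in FASD in the contrast in which COL11A2 and ACAN were higher, though not every marker did. Of 7 precursor markers 5 were measured (CSPG4, GPR17, OLIG2, SOX10 and VCAN), and their mean centred signal at 5 months ranged from 0.15 to 0.33 in FASD animals, against -0.14 to 0.08 in controls. The difference was 0.28 (two-sided exact permutation test, p = 0.00216, Benjamini-Hochberg adjusted over 9 marker lists to 0.0195), in 5 of 5 FASD animals above every control. Of 11 oligodendrocyte and myelin markers 4 were measured (CNP, MAL, MBP and UGT8), and their mean ranged from 0.05 to 0.61 in FASD animals, against -0.27 to 0.08 in controls, a difference of 0.37 (same exact test, p = 0.00649, adjusted to 0.0292). Single markers differed: GPR17, MBP, UGT8, MAL and OLIG2 had differences of 0.62, 0.57, 0.56, 0.42 and 0.31, while CSPG4 had 0.01 and CNP -0.07. Without FASD animal 2 at 5 months the list differences were 0.26 (exact test, adjusted to 0.0429) and 0.28 (adjusted to 0.0643). At 2 years the differences were 0.18 and -0.06, with adjusted exact p of 0.516 and 0.733, and the ranges overlapped. These lists were chosen with earlier results of these data known, and p was adjusted over the 9 lists within each contrast only. The p values do not test a link with COL11A2 or ACAN. CSPG4 and VCAN also stand in the list of other matrix genes. The part of these cells in the COL11A2 and ACAN values was not tested.

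**Figure D5:**
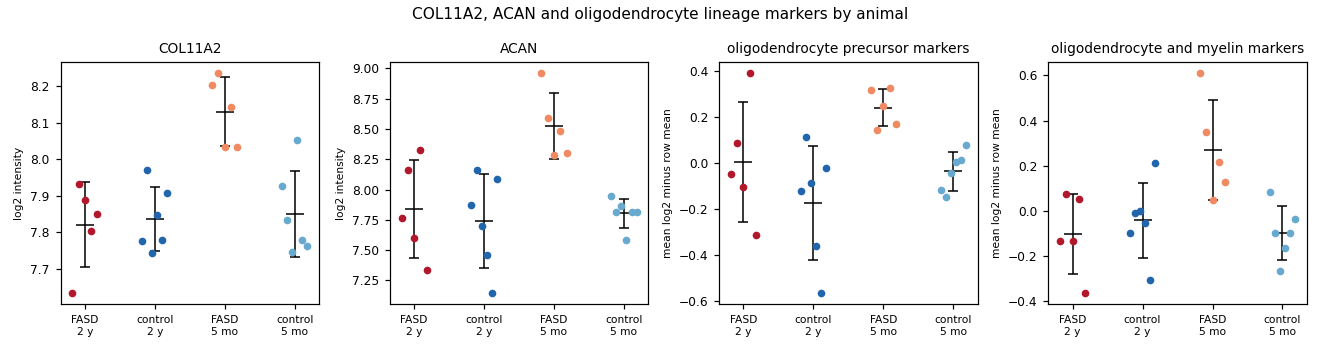
Log2 intensity of COL11A2 and ACAN, and the mean centred log2 signal of oligodendrocyte precursor markers and of oligodendrocyte and myelin markers, in each animal with group mean and SD. At 5 months the FASD animals lie above every control in ACAN and in the precursor markers (0.15 to 0.33, against -0.14 to 0.08), and 3 of 5 do in COL11A2.

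The remaining marker lists (endothelial, choroid plexus, astrocyte, microglia, pyramidal neuron, interneuron, and fibroblast and mural) had adjusted exact permutation p of 0.286 or more for FASD against control at 5 months, with differences of -0.18 for interneurons to 0.12 for choroid plexus. The choroid plexus list, of which 3 of 8 were measured, held 1 control animal of 5 months, animal 6, at 1.25, against -0.40 to -0.05 in the other controls.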

How the data were processed

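Hippocampal RNA of 22 male vervets was measured with 1 array per animal. The table deposited by the authors holds log2 intensities from RMA (version not given in the sources used here), which corrects background, normalizes between arrays and summarizes each probe set. Per the methods, probe sets were kept if annotated and detected in at least 6 arrays, with the highest mean set per gene, which left 11512 rows. The authors hybridized 24 arrays and discarded 2 FASD arrays after principal component analysis; the 2 columns of these arrays held no values and were not used. No further scaling or filter was applied here. The platform annotation gives 1 symbol for 8730 rows, several for 88 and none for 2694, and only rows with 1 symbol were named; 1 symbol of the families described is not reported here.

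Group means were fitted with limma 3.58.1 in R 4.3.3, with all 4 groups sharing 1 variance estimate, for 7 contrasts: alcohol over both ages and at each age, age over both exposures and in each, and the interaction. Tests were two-sided, with Benjamini-Hochberg adjustment over all rows. The script was tested on simulated data. Marker lists were averaged per animal over rows centred on their means and compared by exact permutation in Python 3.11.15, and figures were drawn with matplotlib 3.10.9. The number of arrays limits the precision.

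The rows described in detail were those with an unadjusted p under 0.05 for alcohol, age or the interaction, and others were named by role, as rows of one gene or as the brightest and dimmest. Of 48 genes listed by role, 24 were measured and 24 are not analysed here. COL1A2, COL5A3, ADAM10, ADAMTS3, ADAM15, ADAM18, COL14A1, COL12A1 and the collagens set beside COL9A3 and COL11A2 were chosen, at least in part, after their values were seen. The members and lists were chosen with earlier results of these data known. Alternatives were centring, quantile normalization, array weights, bright rows only, the mean of a gene's rows, robust variances with an intensity trend, a two-way analysis of variance, omission of each animal, and a block on replicate number.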

Additional observations from a re-analysis of the deposited data

Results flagged for a closer look

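In the 15 rows described in detail and COL1A2, an animal was compared with the rest of its group for a gap that was large against the group's whole range. Of the 60 groups of those 15 rows 4 held such an animal, and chance marks about 1 in 20 groups. The other 2 are in COL1A2, a row chosen after its values were seen. FASD animal 6 at 2 years had 8.10 for COL1A2, against 6.38 to 6.83 in the other 4, and FASD animal 2 at 5 months had 8.45, against 6.58 to 7.03. COL15A1 was 4.91 in FASD animal 4 at 5 months, against 4.39 to 4.52, and without it the age difference of that row was -0.17. THBS1 was 4.79 in FASD animal 4 at 2 years, against 3.40 to 3.74, and without it the age difference was -0.67. MMP24 was 8.08 in control animal 4 at 5 months, against 7.71 to 7.80. Row 1 of TIMP1 was 8.01 in control animal 2 at 2 years, against 8.51 to 8.74, and without it the alcohol difference was -0.27.

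The alcohol difference depended on age at an unadjusted p under 0.05 in limma for 3 collagens and for ACAN, and for none of them at an adjusted p under 0.05 (adjusted p = 1 for each). By limma, the alcohol difference at 2 years less that at 5 months was -0.296 for COL11A2 (-0.016 at 2 years and 0.28 at 5 months), -0.234 for COL9A3 (-0.0868 and 0.147), -0.211 for COL28A1 (-0.0706 and 0.141) and -0.62 for ACAN (0.0998 and 0.72).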

How the results depend on the processing

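No row of the matrix and protease genes passed an adjusted p under 0.05 in limma in any contrast, and this held under every alternative run except 1. With the replicate number as a block, THBS1 passed for age (log2 difference -0.61, adjusted p = 0.0353), which made a count of 1 for age in place of 0. The labels do not say that the number pairs animals, and the deviations of 30 same-numbered pairs had a mean correlation of 0.0706 (-0.33 to 0.389, 13 of 30 over 0.1), against -0.0107 in 151 pairs of different number (38 over 0.1). Not every pair passed 0.1, so the block was not used in the report. A real pairing could fail that rule too, so whether the number pairs animals is not settled. The methods state that age-matched cases and controls were sacrificed in alternation, without naming the replicate number. Under the block the counts at an unadjusted p under 0.05 were 6 for alcohol, 3 at 2 years, 3 at 5 months and 7 for age. Those for age in FASD, age in controls and the interaction were 5, 8 and 3. The shares of all rows were 8.64%, 6.01%, 5.48%, 10.4%, 7.51%, 6.47% and 3.14%, in the same order.

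Counts at an unadjusted p under 0.05 were less stable. Array weights gave 13 rows for alcohol, 7 at 2 years, 7 at 5 months, 13 for age and 7 for age in FASD (20.3%, 10.9%, 10.9%, 20.3% and 10.9%), against 14.5%, 10.6%, 10.1%, 14.1% and 9.37% of all rows. For age in controls and the interaction they gave 6 and 2 (9.38% and 3.12%), below the 11.8% and 6.29% of all rows. With only the 14 brighter rows the counts were 2 for alcohol, 1 at 2 years, 0 at 5 months, 1 for age, 1 in FASD, 2 in controls and 0 for the interaction, where fewer rows were tested. Of all rows above the median signal, 7.52%, 4.83%, 4.19%, 10.3%, 7.7%, 5.16% and 2.52% were called, in the same order. The analysis of variance and centring each gave 5 for alcohol at 5 months, all higher in FASD (7.81%, against 5.14% and 4.95% of all rows). Centring gave 7 for age in FASD (10.9%, against 7.37% of all rows). Leaving out FASD animal 2 and control animal 6 at 5 months together, chosen after seeing the data, gave 1 for alcohol at 5 months. Apart from the smaller row set, the cause was not tested.

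With each animal left out in turn the counts ranged from 3 to 11 for alcohol (6 with all), 1 to 9 at 2 years (4), 1 to 8 at 5 months (3), 6 to 13 for age (8), 2 to 7 in FASD (4), 4 to 10 in controls (6) and 1 to 3 for the interaction (3). The share of all rows called in those fits ranged from 5.99% to 14.6% for alcohol, 3.43% to 14.5% at 2 years, 3.17% to 7.29% at 5 months, 7.93% to 12.4% for age, 4.93% to 8.77% in FASD, 4.47% to 11.7% in controls and 2.2% to 6.56% for the interaction. Control animal 2 at 2 years gave the highest counts when left out, at 11, 9 and 13 for alcohol, alcohol at 2 years and age (14.6%, 14.5% and 12.4% of all rows), and control animal 1 at 5 months gave the 3 for alcohol. For alcohol at 2 years, leaving out control animal 3, 4 or 5 or FASD animal 3 gave 2. Leaving out FASD animal 4 gave 1 (1.56%, against 5.48% of all rows). At 5 months, leaving out control animal 4 gave 8 (12.5%, against 6.12% of all rows) and FASD animal 4 gave 5. Without control animal 2 or FASD animal 2 the count was 1 (1.56%, against 3.92% and 3.17% of all rows). For age in FASD, leaving out FASD animals 4 and 6 of 2 years gave 7 and 2 (10.9% and 3.12%, against 7.57% and 6.38% of all rows). For age in controls, leaving out control animal 1 of 2 years gave 10 (15.6%, against 5.36% of all rows). For the interaction, control animals 1 and 6 of 2 years, control animals 1 and 5 of 5 months and FASD animal 2 of 5 months each gave 1 (1.56%). The shares of all rows in those fits were 3.7%, 2.2%, 4.52%, 2.78% and 2.61%, in that order.

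Over 48 differences of single rows, 1279 of 1449 refits kept the direction and the side of an unadjusted p of 0.05, 170 kept the direction and lost that p, and 0 changed direction. Centring moved the split of the 64 rows to 21 higher and 43 lower for age in FASD (28 and 36 without it). The interaction also had 21 higher and 43 lower after centring (32 and 32 without it), and alcohol had 41 higher and 23 lower. The shares of all rows that were lower after centring were 50.2%, 54% and 47.1% in that order, against 44.5%, 40% and 53.2% without it. Over all rows the share of alcohol calls that were lower in FASD was 48.5% after centring and 71.2% without it. Of the 64 rows, 50 lay below the median signal of the array.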
